A study of Mus musculus with 9 samples.

Results

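The expression of 42 genes of the sarcomere scaffold was followed in mouse hearts from the end of gestation through the first week after birth. The 42 genes encode titin and proteins of the M-band, myosin-binding proteins, Z-disc proteins, partners of the titin spring, costamere and intermediate filament proteins, proteins of the thin filament ends, and proteins of sarcomere folding and turnover. They were chosen by symbol from a list that leaves out myosins, actins and troponins, and they are 42 of the 48820 genes in the table of expression values. RNA of hearts of untreated wild-type C57BL/6J mice was sequenced at embryonic day 18.5 (E18.5d), postnatal day 1 (P1d) and postnatal day 7 (P7d), with 3 hearts per stage that the labels call biological replicates, and the labels give every heart as male. Expression is given in FPKM, the fragments of a gene scaled to its transcript length and to the mapped fragments of the library. The markers of working cardiomyocytes were present in all 9 hearts, since *Myh6*, *Tnnt2*, *Tnni3*, *Actc1*, *Ryr2*, *Atp2a2* and *Pln* together reached 19040 to 25680 FPKM.

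The sarcomere is the contractile unit of the heart muscle cell. At its borders, the Z-discs, thin filaments of opposite polarity are crosslinked by alpha-actinin, and at its centre, the M-band, thick filaments are held in register by myomesins. Titin is a single giant molecule that spans from Z-disc to M-band, and its spring region sets much of the passive stiffness of the myocardium, while its ends and its spring carry proteins that are thought to sense stretch. In the fetal and newborn heart a compliant form of titin is replaced by stiffer forms through alternative splicing, which values summed over all transcripts of a gene cannot show, and the same holds for the fetal and adult forms of *Ldb3*.

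Before the results, 2 features of the hearts have to be stated. *Xist*, the RNA of the inactive X chromosome, stood at 58.0 to 97.0 FPKM in 4 hearts (E18.5d replicates 1 and 3, P7d replicates 2 and 3), in which 4 genes of the Y chromosome were listed at 0, against at most 0.11 FPKM in the other 5 hearts, so that the male label went against the data in these 4. The airway gene *Scgb3a2* reached 53.2 to 179 FPKM in 3 hearts (E18.5d replicates 1 and 2, P1d replicate 1) and at most 1.00 FPKM in the others, and *Scgb3a1* 34.9 to 270.3 against at most 2.97 FPKM. No P1d heart was among the former and no P7d heart among the latter. The changes of some members are also given without these hearts, and not every call was kept in those fits. The steps between low FPKM values gave an estimated depth of 24750000 to 43250000 fragments per heart, at which 3 fragments on a kilobase of transcript are worth 0.0694 to 0.121 FPKM. Whether counting error or the spread between hearts set the precision of the values was not tested.

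The start sites of the genes were searched for motifs that are classical in muscle promoters, because the sequences show which members carry them just before an annotated start site. RefSeq promoter windows (GRCm38.p6), cut here to the 250 bases before the start site, were found for 34 of the 42 genes. For each gene the window nearest the start of the principal transcript in the GENCODE M21 annotation was used. That start lay 47896 bases away for *Fhl1*, 2365 for *Ttn* and at most 287 for the others. They were searched on both strands for the CArG box bound by serum response factor, the MEF2 site, the MCAT element CATTCC bound by TEAD factors and the E box CANNTG. A CArG box was found in 4 of the 34 windows (11.8%) against 1.47% of all 32851 windows, and a MEF2 site in 8 (23.5%) against 2.92%. The MCAT element was found in 8 (23.5%, all windows 12.6%) and the E box in 27 (79.4%, all windows 66.2%). Either of the first pair was found in 11 windows (32.4%), against 4.32% of all windows, and *Fhl2* held both. The CArG boxes are shown in capitals with 10 bases on each side, read in the direction of the gene.
Myom1 (chr17:71019448-71019477, plus strand): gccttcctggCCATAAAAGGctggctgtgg
Ldb3 (chr14:34588697-34588726, minus strand): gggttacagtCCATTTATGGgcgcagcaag
Fhl1 (chrX:56779571-56779600, plus strand): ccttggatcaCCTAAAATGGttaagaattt
Fhl2 (chr1:43196838-43196867, minus strand): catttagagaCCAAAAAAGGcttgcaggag

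MEF2 sites are shown in the same way.
Ttn (chr2:76982694-76982723, minus strand): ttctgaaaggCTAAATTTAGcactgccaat
Myom3 (chr4:135759670-135759699, plus strand): ctcagcgctgCTATATTTAAgacggttaca
Mybpc3 (chr2:91118044-91118073, plus strand): tggaatttgtCTATATTTAGcaggtggcta
Synpo2 (chr3:123236366-123236395, minus strand): agcccggctaCTATTTATAGaataattaaa
Synpo2l (chr14:20668444-20668473, minus strand): gaaatttgtaCTATAATTAGttctaggagt
Fhl2 (chr1:43196773-43196802, minus strand): tggacatgccTTATTTATAActctgctgac
Xirp2 (chr2:67445918-67445947, plus strand): agctcagttcCTAAAAATAGgtgctaggtt

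The letters of a MEF2 site can also be those of a TATA box, and the matches of *Myom3* and *Fhl2* began 35 and 31 bases before the start site, close to where a TATA box lies. The whole 250 bases before the start are shown for *Xirp2*, which had the largest rise of the members with a CArG box or MEF2 site, with its MEF2 site in capitals.
Xirp2 (chr2:67445752-67446001, plus strand): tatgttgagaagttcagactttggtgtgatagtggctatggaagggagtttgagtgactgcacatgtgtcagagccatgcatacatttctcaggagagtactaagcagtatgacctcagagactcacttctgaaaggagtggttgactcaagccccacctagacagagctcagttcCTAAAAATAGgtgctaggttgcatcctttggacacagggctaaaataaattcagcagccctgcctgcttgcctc

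A match is a stretch of letters and says nothing of whether a factor was bound there. Between E18.5d and P7d, when 12.5% of all genes tested rose and 36.9% fell, 3 of the 4 members with a CArG box rose and 0 fell (median log2 change 0.31). Of the 7 tested members with a MEF2 site, 4 rose and 1 fell (median 0.43), and of the 8 with an MCAT element, 4 rose and 2 fell (median 0.20).

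The 42 genes together amounted to 7825 ± 101, 8850 ± 295 and 9061 ± 109 FPKM in the order of the stages (SD, 3 hearts per stage here and below), which is 1.53%, 1.75% and 1.99% of the FPKM of all protein-coding nuclear genes. Those genes held 36.8%, 32.4% and 31.8% of all FPKM at these stages, so the shares also depend on that denominator. Titin was the most highly expressed member at every stage and held 14.5% of the sum at E18.5d and 14.4% at P7d. Behind *Ttn*, the order at E18.5d was *Csrp3*, *Mybpc3*, *Actn2* and *Ankrd1*, and at P7d it was *Mybpc3*, *Actn2*, *Csrp3* and *Fhl2*. *Csrp3* and *Mybpc3* therefore changed places, from 954 ± 39.2 and 720 ± 34.6 FPKM to 726 ± 16.5 and 1015 ± 44.5 FPKM, and their ranges did not overlap at either stage. In all, 19 genes lay over 100 FPKM at E18.5d and 19 at P7d, but not the same ones. *Flnc* and *Smyd2* were over it only at the former stage, *Tcap* and *Trim63* only at the latter. At the other end, *Ankrd2*, the skeletal muscle member of the ankyrin repeat family, stood at 0 to 0.110 FPKM in all hearts, about 4 fragments at most, which cannot be told from background at this depth. *Myom3*, the third myomesin, stood at 0.40 to 0.50 FPKM before birth, 0.50 to 0.60 at P1d and 0.88 to 1.02 at P7d, and the P7d hearts lay above all others. These 2 genes had a mean below 1 FPKM over the 9 hearts and were not tested one by one.

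**Figure D1:**
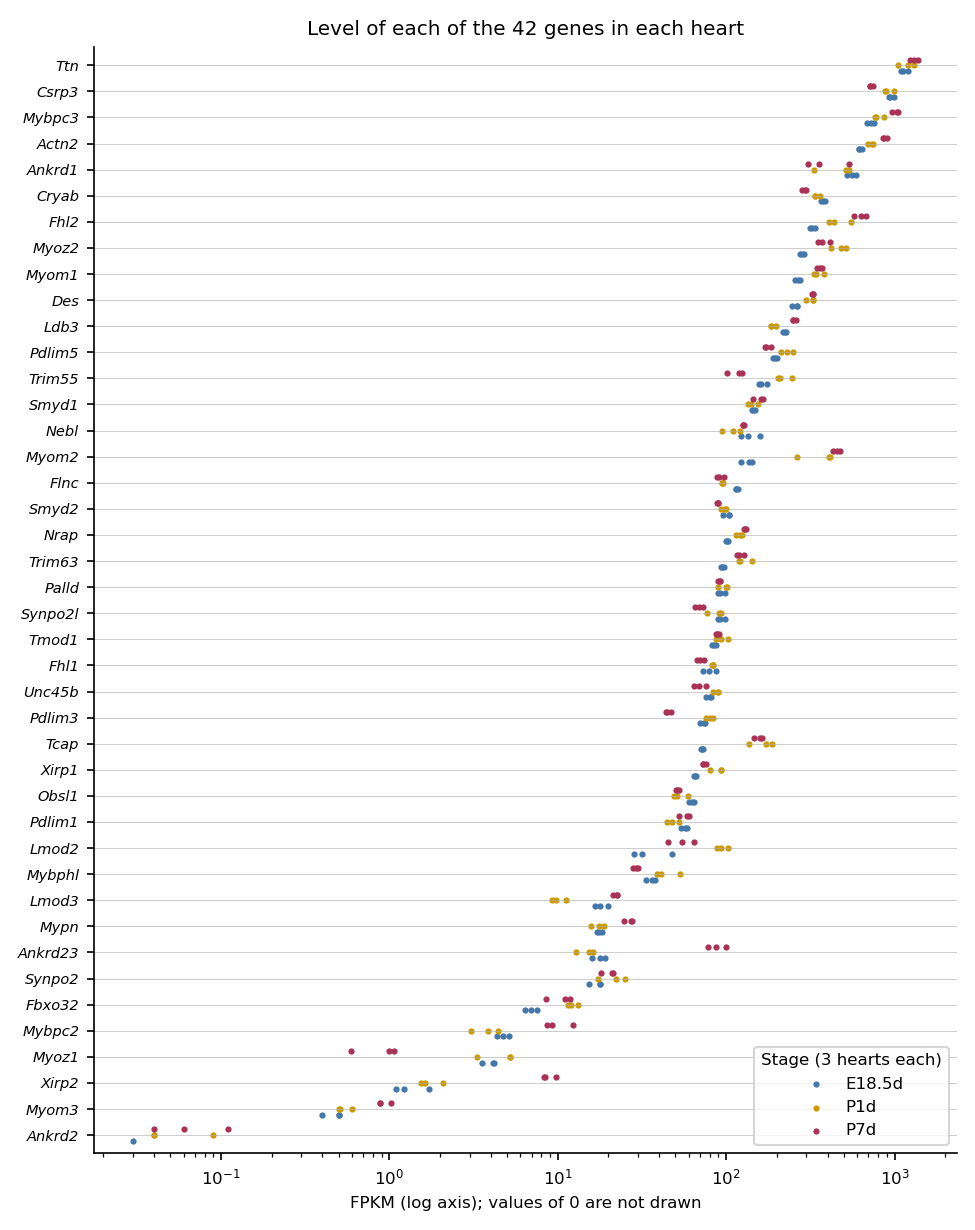
FPKM of each of the 42 genes (rows, ordered by their mean at E18.5d) in each of 9 hearts on a logarithmic axis, coloured by stage, with values of 0 not drawn. Most genes keep their place between stages, while Ankrd23, Xirp2, Myom2, Lmod2 and Myoz1 have stages that lie well apart.

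Most members changed in the week around birth, and most changes were smaller than 2-fold. Between E18.5d and P7d, 18 of the 40 tested members rose (12.5% of all 13618 genes tested rose) and 11 fell (36.9% of all genes fell), 29 in all (49.4%). Between E18.5d and P1d, 14 rose (18.4% of all genes) and 6 fell (27.6%), 20 in all (46%). Between P1d and P7d, 10 rose (15.5%) and 13 fell (28.6%), 23 in all (44.2%). The hearts of the stages compared did not overlap for 33, 25 and 27 of the 40 members, and for 62.5%, 54.4% and 53.6% of all genes. The members' median log2 change was 0.18, 0.15 and -0.07 in these 3 comparisons, where that of all genes tested was -0.17, -0.06 and -0.09. A gene was said to rise or fall if its Benjamini-Hochberg adjusted p over all genes, from limma on log2(FPKM + 1), was below 0.05. Changes are given as log2 differences with their standard errors (SE) on that scale, which understates the change of genes with few FPKM. Altogether 34 members were called in at least 1 comparison and 7 in all 3, counts for which the share of all genes was not computed. In the steps from E18.5d to P1d and from P1d to P7d, 7 members were called in neither, against 34.4% of all genes. An absolute log2 change of at least 1, with hearts that did not overlap, was reached by 4 members upwards and 1 downwards between E18.5d and P7d (1.92% and 2.78% of all genes, 4.71% in either direction). It was reached by 3 upwards and 0 downwards between E18.5d and P1d (1.88% and 3.3%, 5.18%), and by 4 upwards and 1 downwards between P1d and P7d (1.75% and 2.25%, 4%).

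The numbers of rising and falling members depended on how the columns were scaled. Scaling by the median of ratios moved the median log2 change of all genes between E18.5d and P7d from -0.17 to -0.02, and 23 members then rose and 6 fell (21.3% and 20.9% of all genes). By the same scaling 20 rose and 3 fell between E18.5d and P1d (23.2% and 22.9%), and 15 rose and 8 fell between P1d and P7d (21.9% and 19.8%). With columns brought to an equal sum, 7 members rose and 9 fell between E18.5d and P1d (8.63% and 34.5% of all genes), and 10 rose and 5 fell between P1d and P7d (16.2% and 12.7%). Calls lost with an equal sum included the rises at birth of *Myom1*, *Actn2*, *Des*, *Nrap*, *Xirp1*, *Trim55* and *Pdlim5*, and the falls from P1d to P7d of *Csrp3*, *Myoz2*, *Pdlim5*, *Fhl1*, *Cryab*, *Xirp1* and *Unc45b*. Calls lost by the median of ratios included the falls at birth of *Nebl*, *Obsl1* and *Pdlim1*, and the falls from P1d to P7d of *Myoz2*, *Fhl1*, *Cryab* and *Xirp1*. The cardiomyocyte markers named above summed to 19040 to 19700 FPKM before birth, 23090 to 25680 at P1d and 24550 to 25550 at P7d, with none of the 7 at 0. Much of that rise lay in *Myh6*, whose mean went from 3220 FPKM at E18.5d to 8318 at P7d. The means of *Atp2a2*, *Tnni3*, *Pln* and *Ryr2* rose as well. That of *Tnnt2* fell from 4431 to 3056 FPKM, and *Actc1* was 7400 and 7323 FPKM. The 6 atrial markers (*Sln*, *Myl7*, *Myl4*, *Nppa*, *Bmp10*, *Nr2f2*) summed to 6576 to 7748, 6571 to 6966 and 3372 to 3594 FPKM, and the 5 smooth muscle markers to 744 to 918, 716 to 820 and 607 to 721 FPKM. Most of the smooth muscle sum was *Acta2*, with means of 701 FPKM at E18.5d and 551 at P7d. *Tagln*, *Cnn1* and *Myh11* also had lower means at P7d, while *Smtn* rose from 30.9 to 55.45 FPKM. The 6 fibroblast markers went from 1489 to 1596 FPKM at E18.5d to 2238 to 2272 at P7d, and the 5 endothelial markers from 331 to 367 to 480 to 501 FPKM. The fibroblast rise lay in *Col3a1* (mean 717 to 1201 FPKM), *Dcn*, *Col1a2* and *Col1a1*. *Pdgfra* (27.85 and 27.53 FPKM) and *Tcf21* (26.3 and 24.15 FPKM) did not rise. The part of these shifts in the changes of the members was not tested, and in RNA of bulk tissue fewer cells of a type and less RNA per cell cannot be told apart.

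**Figure D2:**
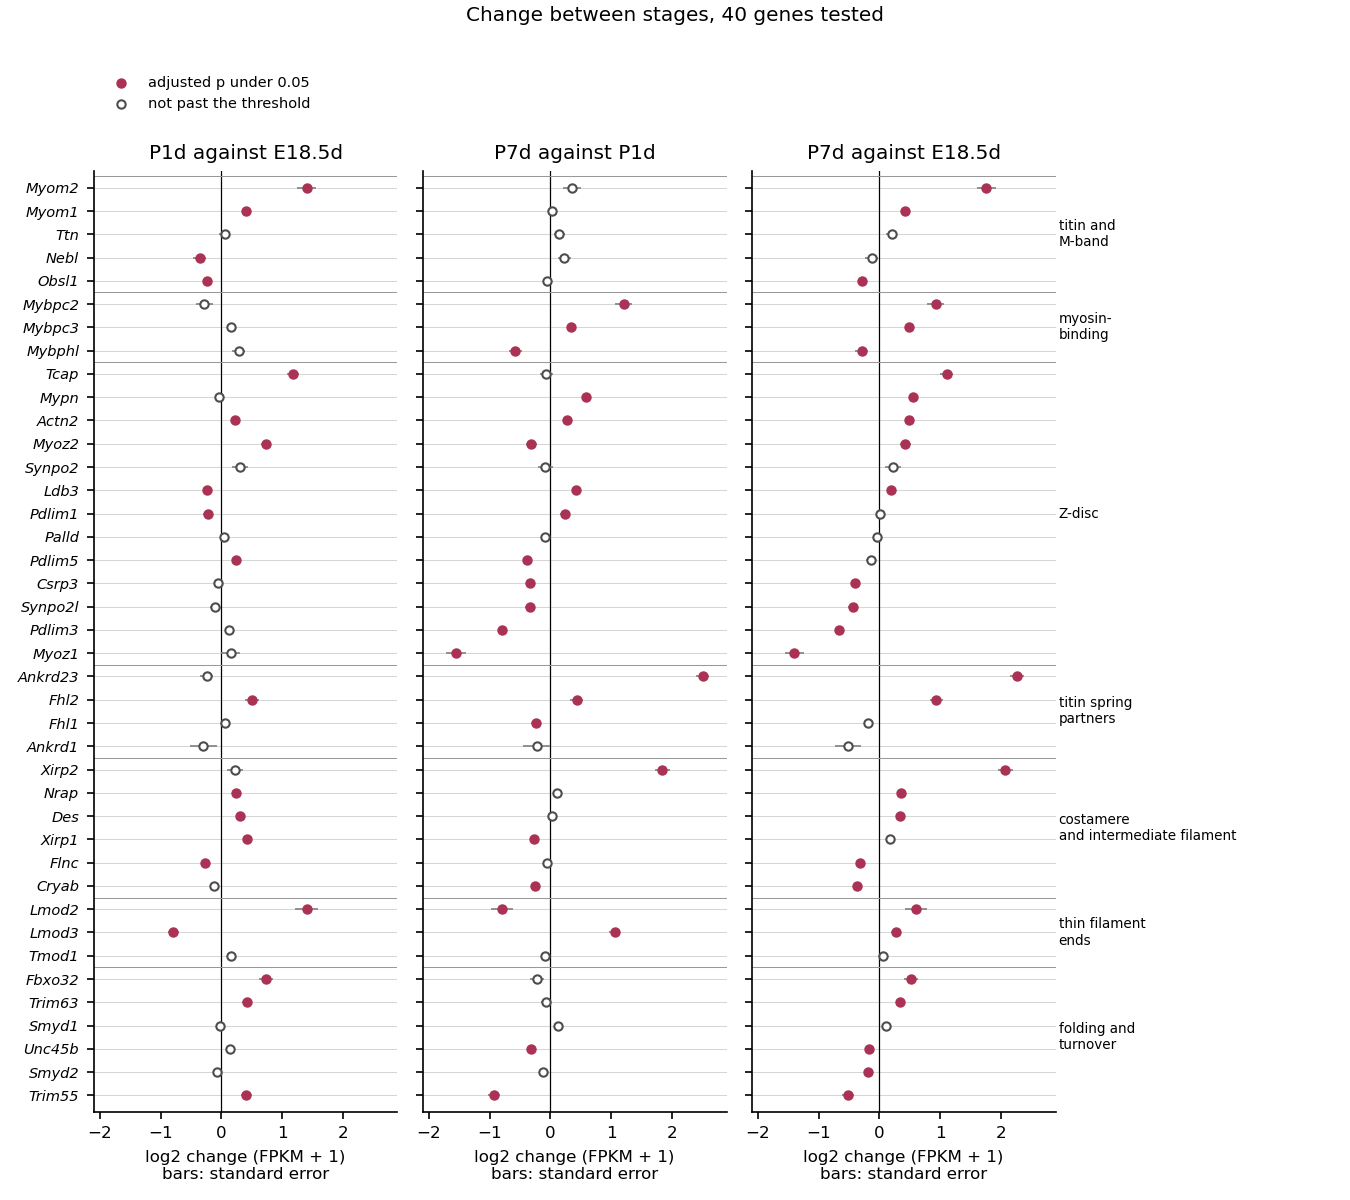
Log2 change of FPKM + 1 between stages for the 40 members tested, grouped by role, with bars for the standard error. Filled points passed an adjusted p of 0.05, and in each panel they lie on both sides of 0.

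Titin itself passed in no comparison. Positions here and below are those of GRCm38 in the GENCODE M21 annotation. *Ttn* (ENSMUSG00000051747.14, chr2:76703980-76982547, minus strand) stood at 1125, 1087 and 1199 FPKM in the E18.5d hearts, 1301, 1053 and 1194 in the P1d hearts and 1313, 1235 and 1374 in the P7d hearts. The P7d hearts lay above all E18.5d hearts, but the P1d hearts overlapped both. The log2 change from E18.5d to P7d was 0.20 (SE 0.09, adjusted p = 0.0774 by limma), short of the threshold. It passed in 6 of 20 alternatives, namely scaling by the median of ratios, by quantiles or to an equal sum of protein-coding genes, the fit of the 2 stages alone, the replicate block, and leaving out P1d replicate 2 (log2 change 0.16 to 0.54 and adjusted p 0.00694 to 0.407 over all 20). The step of *Ttn* from P1d to P7d (0.149, adjusted p = 0.188 by limma) passed in the first 3 of these (adjusted p 0.0094 to 0.55 over all 20).

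Of the myomesins, which bind titin and myosin at the M-band, the main change was in *Myom2*, the form of fast and mature sarcomeres. *Myom2* (ENSMUSG00000031461.4, chr8:15057653-15133541, plus strand) stood at 136, 141 and 122 FPKM in the E18.5d hearts, 410, 411 and 264 in those of P1d and 476, 431 and 454 in those of P7d. All P1d hearts lay above all E18.5d hearts and all P7d hearts above all P1d hearts, with P1d replicate 3 lowest of its stage. *Myom2* rose 2.71-fold in mean FPKM from E18.5d to P1d (log2 change 1.41, SE 0.15, adjusted p = 0.000101) and 3.40-fold to P7d (1.76, SE 0.15, adjusted p = 2.37e-05). Its step from P1d to P7d did not pass (0.355, SE 0.153, adjusted p = 0.0868 by limma). That step passed by the median of ratios, by quantiles, with either equal sum and without P1d replicate 2 (adjusted p 0.0195 to 0.393 over the alternatives). *Myom1*, the myomesin of all striated muscle, also rose at birth, from 266 ± 7.64 to 353 ± 26.2 FPKM (log2 change 0.40), and was 359 ± 10.7 FPKM at P7d.

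*Obsl1*, a relative of obscurin that links titin to myomesin, fell from 62.6 ± 2.05 FPKM at E18.5d to 51.3 ± 1.32 at P7d (log2 change -0.28), a call that was lost when columns were scaled by the median of ratios, by quantiles or to an equal sum of protein-coding genes (adjusted p 0.00166 to 0.263 over the alternatives, by limma). *Nebl*, the cardiac relative of nebulin, fell from 139 ± 17.6 to 108 ± 13.7 FPKM between E18.5d and P1d (log2 change -0.35), and was 126 ± 0.637 at P7d. Leaving out E18.5d replicate 3 or P1d replicate 2 ended that call of *Nebl* (adjusted p = 0.0752 and 0.0649 by limma), and leaving out any of 4 hearts (E18.5d replicates 1 and 2, P1d replicates 1 and 3) ended the P1d call of *Obsl1* (log2 change -0.24, with -0.23 to -0.18 without them). In the group of titin, its relatives and the M-band, 2 of 5 tested members rose and 1 fell between E18.5d and P7d, where 12.5% and 36.9% of all genes did.

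Myosin-binding protein C stabilizes the thick filament and regulates the access of myosin to actin. The cardiac form, *Mybpc3* (ENSMUSG00000002100.15, chr2:91118144-91136516, plus strand), stood at 751, 725 and 683 FPKM in the E18.5d hearts, 779, 864 and 764 in those of P1d and 1036, 1045 and 964 in those of P7d. The stages did not overlap and the larger step came after P1d. *Mybpc3* rose by a log2 change of 0.50 from E18.5d to P7d (SE 0.07, adjusted p = 0.000395) and of 0.34 from P1d to P7d (SE 0.07, adjusted p = 0.00385), and the step from E18.5d to P1d did not pass (0.16, SE 0.07, adjusted p = 0.0954). That first step passed by the median of ratios, by quantiles and with an equal sum of protein-coding genes (adjusted p 0.024 to 0.855 over the alternatives, by limma).

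*Mybpc2* (ENSMUSG00000038670.11, chr7:44501699-44524656, minus strand), the form of fast skeletal muscle, was far less abundant, at 5.12, 4.72 and 4.38 FPKM in the E18.5d hearts, 4.41, 3.83 and 3.04 in those of P1d and 8.59, 9.21 and 12.3 in those of P7d. All P7d hearts lay above all others, and P7d replicate 3 was the highest. It rose 2.12-fold over E18.5d (log2 change 0.93, SE 0.14, adjusted p = 0.000618) and 2.67-fold over P1d (1.21, SE 0.14, adjusted p = 0.000195). The adult fast skeletal myosins *Myh1*, *Myh2* and *Myh4* were close to 0 in the same hearts, with stage means of at most 0.0567 FPKM. Other skeletal markers were near the level of *Mybpc2* before birth and lower at P7d, since the stage means of *Tnni2*, *Myh8*, *Mylpf*, *Pvalb* and *Tnnt3* were 2.67 to 6.89 FPKM at E18.5d, 1.54 to 4.75 at P1d and 0.497 to 3.55 at P7d. The list of 10 skeletal muscle markers summed to 1870 to 1903, 1549 to 1679 and 1497 to 1591 FPKM over the 3 stages, of which *Ckm*, a gene that cardiomyocytes also express, made 1870, 1598 and 1527 FPKM on average.

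*Mybphl*, a relative of myosin-binding protein H known from the atria, stood at 35.9 ± 2.21 FPKM before birth, then 44.3 ± 7.85 at P1d and 29.0 ± 0.848 at P7d. It fell from P1d to P7d (log2 change -0.58, SE 0.11, adjusted p = 0.00228), while the summed atrial markers fell from 6571 to 6966 to 3372 to 3594 FPKM, and the part of the atrial share in it was not tested. Its lower level at P7d than at E18.5d (log2 change -0.29, adjusted p = 0.046 by limma) was lost when any of 7 hearts was left out, namely all but P1d replicates 2 and 3 (adjusted p 0.052 to 0.137, log2 change -0.34 to -0.25).

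The Z-disc group was split, with 5 of its 13 members rising and 4 falling between E18.5d and P7d (12.5% and 36.9% of all genes). *Actn2* (ENSMUSG00000052374.14, chr13:12269426-12340760, minus strand), the alpha-actinin that crosslinks thin filaments, stood at 642, 612 and 614 FPKM in the E18.5d hearts, 750, 733 and 692 in those of P1d and 858, 906 and 864 in those of P7d. The 3 stages did not overlap. *Actn2* rose in both steps, by a log2 change of 0.22 to P1d (SE 0.06, adjusted p = 0.0115) and of 0.27 from P1d to P7d (SE 0.06, adjusted p = 0.00406), which made 1.41-fold in mean FPKM from E18.5d to P7d. With columns at an equal sum the first step was 0.04 (adjusted p = 0.726). Without the 3 hearts with airway genes, which left a single E18.5d heart, that step was 0.21.

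*Tcap* (ENSMUSG00000007877.2, chr11:98383811-98384953, plus strand) encodes telethonin, the cap that joins the ends of paired titin molecules at the Z-disc. It stood at 72.8, 71.1 and 72.0 FPKM in the E18.5d hearts, 136, 187 and 173 in those of P1d and 164, 159 and 147 in those of P7d. The P1d and P7d hearts overlapped each other and lay above all E18.5d hearts. *Tcap* rose 2.30-fold by P1d (log2 change 1.18, SE 0.10, adjusted p = 3.08e-05) and did not change detectably from P1d to P7d (-0.07, SE 0.10, adjusted p = 0.623).

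The calsarcins, which tether calcineurin to alpha-actinin, moved in opposite directions between E18.5d and P7d, although both were lower at P7d than at P1d. *Myoz2*, the cardiac calsarcin, rose from 282 ± 8.45 FPKM before birth to 472 ± 48.7 at P1d (log2 change 0.74, SE 0.09, adjusted p = 0.000153) and was 380 ± 31.8 FPKM at P7d, still above E18.5d (0.43, adjusted p = 0.00299 by limma). Its drop between P1d and P7d (log2 change -0.31, adjusted p = 0.0168 by limma) was lost without P7d replicate 1 or 2 (adjusted p 0.0533 to 0.0634). *Myoz1* (ENSMUSG00000068697.6, chr14:20649107-20656540, minus strand), the calsarcin of fast skeletal muscle, stood at 4.19, 4.10 and 3.55 FPKM in the E18.5d hearts, 3.33, 5.20 and 5.17 in those of P1d and 0.59, 1.07 and 0.99 in those of P7d. All P7d hearts lay below all others, and the lowest rested on about 32 fragments. *Myoz1* fell to 0.224 of its E18.5d mean (log2 change -1.40, SE 0.16, adjusted p = 0.000115) and to 0.193 of its P1d mean (-1.55, SE 0.16, adjusted p = 9.79e-05). The skeletal markers *Tnni2*, *Myh8*, *Mylpf*, *Pvalb* and *Tnnt3* were also lower in every P7d heart than in every E18.5d heart, with means that went from 6.89 to 3.55, 5.02 to 1.70, 3.12 to 0.757, 2.89 to 0.497 and 2.67 to 0.697 FPKM, and their part in the fall of *Myoz1* was not tested.

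Besides *Myoz1*, *Csrp3*, *Pdlim3* and *Synpo2l* fell at the Z-disc between E18.5d and P7d. *Csrp3*, the muscle LIM protein, went from 954 ± 39.2 to 726 ± 16.5 FPKM (log2 change -0.39, SE 0.07, adjusted p = 0.00108), which quantile normalization reduced to -0.07 (adjusted p = 0.362). *Pdlim3*, the actinin-associated LIM protein, went from 72.7 ± 2.76 FPKM to 79.8 ± 3.83 at P1d and 45.3 ± 1.66 at P7d (log2 change -0.67 from E18.5d to P7d, SE 0.06, adjusted p = 2.33e-05). *Synpo2l*, an actin-binding protein of the Z-disc, went from 93.4 ± 4.85 to 68.9 ± 3.61 FPKM (-0.43, SE 0.08, adjusted p = 0.00213). The summed atrial and smooth muscle markers fell in the same comparison, as given above, though *Smtn* of the latter rose. Their part in these 4 genes was not tested.

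*Mypn*, myopalladin, which binds alpha-actinin and nebulin family proteins, was 17.7 ± 0.673, 17.3 ± 1.51 and 26.6 ± 1.58 FPKM over the stages and rose after P1d (log2 change 0.59, SE 0.08, adjusted p = 0.000314). Its widely expressed relative *Palld* stayed between 89.4 and 101 FPKM in all hearts and passed in no comparison. *Ldb3* (Cypher), the PDZ-LIM protein that stabilizes the Z-disc, fell at birth from 222 ± 3.96 to 190 ± 7.51 FPKM (log2 change -0.23, SE 0.05, adjusted p = 0.00569) and rose to 254 ± 7.00 at P7d (0.42, SE 0.05, adjusted p = 0.000257). The net gain of *Ldb3* from E18.5d to P7d (0.19, adjusted p = 0.0138 by limma) was lost without P7d replicate 2 (adjusted p = 0.0513).

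*Pdlim1* followed the same course as *Ldb3* at lower levels, with 56.3 ± 2.43, 48.2 ± 3.84 and 57 ± 3.88 FPKM. Both calls of *Pdlim1* were lost when any of 4 hearts was left out (adjusted p 0.0792 to 0.11 between E18.5d and P1d on leaving out E18.5d replicate 2 or 3, or else P1d replicate 1 or 2, and 0.0657 to 0.0967 between P1d and P7d without P1d replicate 1 or 2 or P7d replicate 2 or 3). *Pdlim5*, a PDZ-LIM protein that binds protein kinase C, took the opposite course, with 195 ± 4.92, 230 ± 18.3 and 176 ± 7.09 FPKM. It fell from P1d to P7d (log2 change -0.38, SE 0.07, adjusted p = 0.00156), and its rise at birth (0.24, adjusted p = 0.0157 by limma) was lost without E18.5d replicate 3 or P1d replicate 1 (adjusted p 0.0512 to 0.0519). *Synpo2*, or myopodin, at 17.0 ± 1.48, 21.5 ± 3.95 and 20.1 ± 1.85 FPKM, passed in no comparison.

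The partners of the titin spring held the largest change of all members on the log2(FPKM + 1) scale, that of *Ankrd23*, while with 0.1 FPKM added in place of 1 the largest was that of *Xirp2* (log2 change 2.64 from E18.5d to P7d). *Ankrd23* (ENSMUSG00000067653.12, chr1:36530188-36536883, minus strand), a muscle ankyrin repeat protein that binds titin's N2A region, stood at 17.8, 16 and 19 FPKM in the E18.5d hearts, 15.4, 12.8 and 16.1 in those of P1d and 78.3, 87.1 and 100.3 in those of P7d. The P7d hearts lay far above the other 6, which overlapped each other. *Ankrd23* rose 5.03-fold over E18.5d (log2 change 2.26, SE 0.11, adjusted p = 8.73e-07) and 6.00-fold over P1d (2.51, SE 0.11, adjusted p = 2.36e-06). Of the exon bases of *Ankrd23*, 78.2% are shared with the gene model *Gm42417* on the same strand, which was listed at 0 to 2.74 FPKM, so fragments could have been split between them.

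*Ankrd1*, the cardiac ankyrin repeat protein known as a stress-induced gene, was much more abundant and had the largest coefficient of variation of the 40 tested members at P1d and P7d (24.3% and 30.5%, where the median member had 8.24% and 4.69%). It stood at 556, 522 and 588 FPKM in the E18.5d hearts, 538, 516 and 334 in those of P1d and 307, 354 and 537 in those of P7d. P1d replicate 3 and P7d replicates 1 and 2 were low, the stages overlapped, and no comparison passed (log2 change from E18.5d to P7d -0.52, SE 0.22, adjusted p = 0.0781). The LIM proteins that bind the spring differed. *Fhl2*, which docks metabolic enzymes on titin, rose in both steps, from 325 ± 12.2 to 465 ± 75.1 and 627 ± 53.7 FPKM, 1.93-fold from E18.5d to P7d (log2 change 0.94, SE 0.11, adjusted p = 0.000125). *Fhl1* stood at 79.7 ± 7.06, 83.0 ± 0.719 and 70.1 ± 3.26 FPKM, and its drop after P1d (-0.24, adjusted p = 0.0183 by limma) was lost without P7d replicate 2 or 3 (adjusted p 0.0509 to 0.0663).

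Costameres join the Z-disc to the cell membrane, and desmin filaments tie neighbouring myofibrils together. *Des* (ENSMUSG00000026208.9, chr1:75360329-75368579, plus strand) stood at 262, 263 and 245 FPKM in the E18.5d hearts, 328, 328 and 298 in those of P1d and 326, 326 and 323 in those of P7d. All hearts after birth lay above all E18.5d hearts, and the P1d and P7d hearts overlapped. Desmin mRNA rose at birth (log2 change 0.31, SE 0.06, adjusted p = 0.0021) and not detectably thereafter (0.03, SE 0.06, adjusted p = 0.666), although the first step was 0.13 (adjusted p = 0.265) with columns at an equal sum. The second step of *Des* passed by quantiles and with an equal sum of protein-coding genes (log2 change up to 0.19, adjusted p from 0.0164, by limma). Its first step was 0.35 without the 3 hearts with airway genes, with a single E18.5d heart left. *Cryab*, the small heat shock protein that protects desmin, fell from 375 ± 8.45 to 291 ± 8.64 FPKM between E18.5d and P7d (-0.37, SE 0.05, adjusted p = 0.000462). Its exons overlap those of *Hspb2* on the other strand over 17.0% of their bases, and since the library kit is not stated to keep the strand, fragments from that stretch cannot be told apart.

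The Xin proteins, which sit at the intercalated disc and bind filamin and actin, went separate ways. *Xirp2* (ENSMUSG00000027022.13, chr2:67446002-67526614, plus strand) stood at 1.10, 1.22 and 1.73 FPKM in the E18.5d hearts, 2.08, 1.54 and 1.62 in those of P1d and 8.39, 8.32 and 9.81 in those of P7d. The P7d hearts lay far above the others, among which E18.5d and P1d overlapped, and even the lowest value rested on about 318 fragments of a long transcript. *Xirp2* rose 6.55-fold over E18.5d in mean FPKM (log2 change 2.07, SE 0.13, adjusted p = 3.00e-06) and 5.06-fold over P1d (1.84, SE 0.13, adjusted p = 1.42e-05). *Xirp1* instead peaked at P1d, with 65.4 ± 0.859, 88.8 ± 7.19 and 73.7 ± 1.83 FPKM (log2 change 0.43 to P1d, adjusted p = 0.00058, and -0.26 from P1d to P7d, adjusted p = 0.00921 by limma).

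*Flnc*, filamin C, fell at birth from 116 ± 1.77 to 95.3 ± 0.786 FPKM (log2 change -0.28, SE 0.05, adjusted p = 0.00197) and was 92.0 ± 4.36 at P7d. *Nrap*, an actin-organizing protein of nascent myofibrils and intercalated discs, rose from 101 ± 1.54 to 120 ± 4.91 FPKM at P1d (0.24, SE 0.05, adjusted p = 0.00361) and was 130 ± 2.14 at P7d. In this group 3 of 6 members rose and 2 fell between E18.5d and P7d (all genes, 12.5% and 36.9%).

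Leiomodins nucleate and lengthen thin filaments at their pointed ends, which tropomodulin caps. The 2 leiomodins moved in mirror image around birth. *Lmod2* (ENSMUSG00000029683.7, chr6:24597762-24605414, plus strand), the cardiac leiomodin, stood at 28.5, 31.6 and 47.8 FPKM in the E18.5d hearts, 92.7, 102.6 and 88.5 in those of P1d and 45.2, 54.3 and 64.3 in those of P7d. The P1d hearts lay above all others, and the E18.5d and P7d hearts overlapped through E18.5d replicate 3. *Lmod2* rose 2.63-fold by P1d (log2 change 1.40, SE 0.18, adjusted p = 0.000273) and fell again by P7d (-0.79, SE 0.18, adjusted p = 0.00683). Its higher level at P7d than at E18.5d (0.61, adjusted p = 0.0201 by limma) did not survive leaving out E18.5d replicate 1 or 2, nor P7d replicate 2 or 3 (adjusted p 0.0549 to 0.0734), and was 0.17 (adjusted p = 0.539) without the 3 hearts with airway genes.

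*Lmod3* (ENSMUSG00000044086.8, chr6:97238534-97252759, minus strand), the leiomodin of skeletal muscle, stood at 16.6, 17.9 and 19.9 FPKM in the E18.5d hearts, 9.26, 9.74 and 11.2 in those of P1d and 22.5, 22.3 and 21.4 in those of P7d. The P1d hearts lay below all others. *Lmod3* fell to 0.556 of its E18.5d mean by P1d (log2 change -0.79, SE 0.09, adjusted p = 0.000104) and rose 2.19-fold from P1d to P7d (1.06, SE 0.09, adjusted p = 3.00e-05). Its net gain from E18.5d to P7d (0.27, adjusted p = 0.0253 by limma) did not survive leaving out E18.5d replicate 1 or 2, nor P7d replicate 1 or 2 (adjusted p 0.0708 to 0.092). That gain was 0.14 without the 3 hearts with airway genes, with a single E18.5d heart left. *Tmod1*, the capping protein, stayed between 82.5 and 103 FPKM in all hearts and passed in no comparison, with 32.6% of its exon bases overlapped by *Tstd2* on the other strand.

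**Figure D3:**
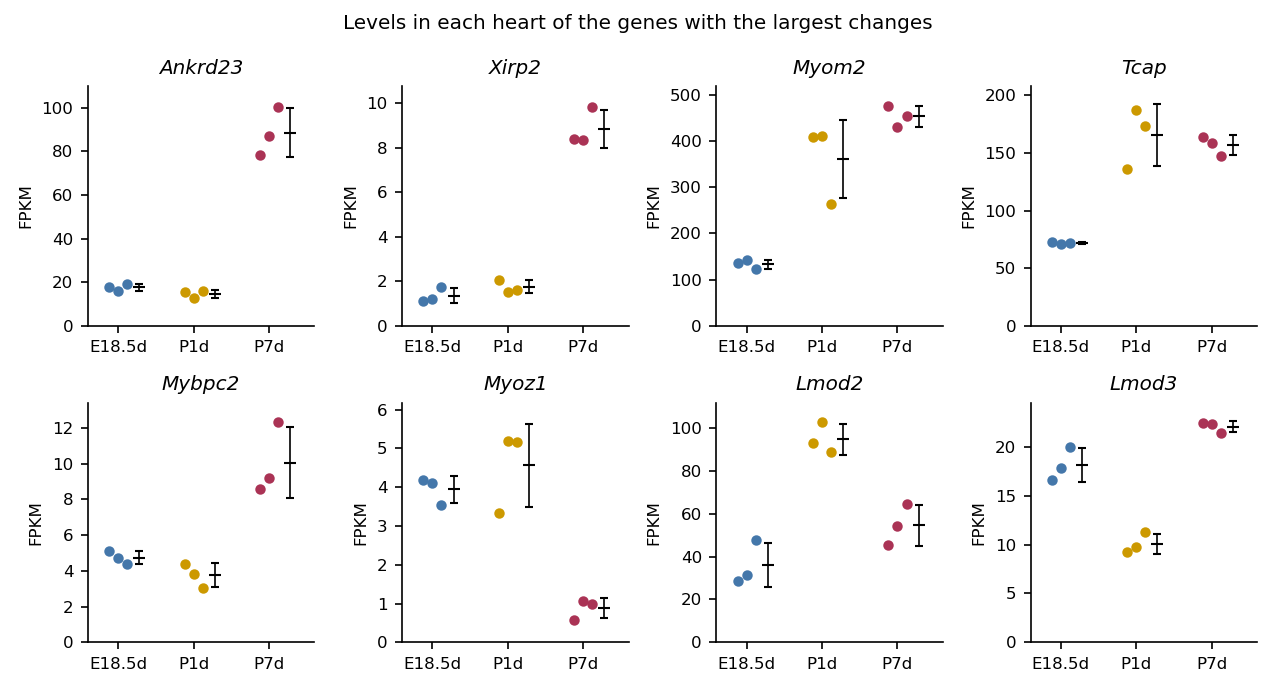
FPKM in each heart of the 8 members with a called log2 change of at least 1 in any comparison, with the mean and SD beside the 3 hearts of each stage and axes that start at 0. Ankrd23, Xirp2 and Mybpc2 are high at P7d, Myom2 and Tcap are high from P1d, Myoz1 is low at P7d, and at P1d Lmod2 is high and Lmod3 low.

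The genes of folding and turnover include chaperones of myosin and the ubiquitin ligases that degrade sarcomere proteins. The muscle ring finger proteins, which bind titin near the M-band, separated after P1d. *Trim63* (MuRF1) rose from 95.2 ± 2.30 to 128 ± 12.8 FPKM at P1d (log2 change 0.42, SE 0.07, adjusted p = 0.0015) and was 121 ± 5.57 at P7d. *Trim55* (MuRF2) rose with it, from 164 ± 9.03 to 219 ± 22.1 FPKM (0.41, SE 0.09, adjusted p = 0.00605), but then fell to 115 ± 11.9 at P7d (-0.93, SE 0.09, adjusted p = 9.13e-05). *Fbxo32*, the F-box protein atrogin-1, rose from 6.94 ± 0.58 to 12.2 ± 0.856 FPKM at P1d (0.74, SE 0.11, adjusted p = 0.00074) and was 10.4 ± 1.74 at P7d.

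*Unc45b*, the myosin chaperone, stood at 79.0 ± 2.80, 87.5 ± 3.04 and 69.8 ± 5.44 FPKM and fell after P1d (log2 change -0.32, SE 0.07, adjusted p = 0.00369). Between E18.5d and P7d its log2 change was -0.18 (adjusted p = 0.0477 by limma), which median of ratios scaling turned to 0.00 (adjusted p = 0.987) and which failed the threshold when any 1 of 7 hearts was left out (all but P1d replicate 2 and P7d replicate 2, adjusted p 0.0513 to 0.165). *Smyd1*, the methyltransferase of myofibril assembly, stayed between 134 and 165 FPKM and passed in no comparison. *Smyd2*, which methylates the chaperone that protects titin's N2A region, was 102 ± 4.89, 97.2 ± 3.63 and 88.9 ± 1.10 FPKM, and its lower level at P7d (-0.19, adjusted p = 0.0165 by limma) did not survive leaving out E18.5d replicate 1 or 2, nor P7d replicate 1 (adjusted p 0.0524 to 0.0652), nor any of the other scalings. Of these 6 genes 2 rose and 3 fell between E18.5d and P7d (12.5% and 36.9% of all genes).

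The 2 steps, from E18.5d to P1d and from P1d to P7d, share the P1d hearts, so their values are set side by side as a description. *Actn2* and *Fhl2* were called higher in both steps (1.52% of all genes), and no member was called lower in both (3.06%). A further 7 members were higher in the first step only by the threshold (*Des*, *Fbxo32*, *Myom1*, *Myom2*, *Nrap*, *Tcap* and *Trim63*, 5.91% of all genes), and 5 in the second (*Ankrd23*, *Mybpc2*, *Mybpc3*, *Mypn* and *Xirp2*, 5.04%). Another 5 were higher and then lower (*Lmod2*, *Myoz2*, *Pdlim5*, *Trim55* and *Xirp1*), and 3 were lower and then higher (*Ldb3*, *Lmod3* and *Pdlim1*). The calls of 8 members were lower in the second step alone (*Cryab*, *Csrp3*, *Fhl1*, *Mybphl*, *Myoz1*, *Pdlim3*, *Synpo2l* and *Unc45b*, 14.6% of all genes) and those of 3 in the first alone (*Flnc*, *Nebl* and *Obsl1*, 15.6%), while 7 were called in neither (*Ankrd1*, *Palld*, *Smyd1*, *Smyd2*, *Synpo2*, *Tmod1* and *Ttn*). Among all genes tested, 34.4% were called in neither step, 11% were higher and then lower, and 8.95% lower and then higher.

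Ratios of related genes within a heart do not depend on the scale of that heart's column, and so compare paralogues directly. Of 16 listed ratios, 15 could be tested by an exact permutation test over every assignment of the 9 hearts to 3 stages, whose smallest p is 0.00357. The ratio differed between stages for 14 of the 15 (Benjamini-Hochberg adjusted p over the 15 of 0.0107 to 0.0383). The exception was *Synpo2* over *Synpo2l* (exact permutation p = 0.1), which passed when P1d replicate 2 or 3 was left out (adjusted p = 0.0306 and 0.0313), and *Smyd2* over *Smyd1* no longer passed without E18.5d replicate 2 (adjusted p = 0.0727). The ratios were tested once across the 3 stages, so which stage differed from which is a description.

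At the M-band, *Myom2* over *Myom1* was 0.50, 0.549 and 0.456 in the E18.5d hearts, 1.07, 1.2 and 0.793 in those of P1d and 1.37, 1.2 and 1.23 in those of P7d (exact permutation p = 0.00714, adjusted p = 0.0153). *Myom1* was thus the more abundant myomesin mRNA per length in every E18.5d heart and *Myom2* in every P7d heart. *Myom3* was at most 0.00293 of *Myom1*.

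Among the Z-disc paralogues, *Myoz1* over *Myoz2* fell from 0.014 ± 0.000945 before birth to 0.00977 ± 0.00268 at P1d and 0.00231 ± 0.000602 at P7d (exact permutation p = 0.00357, adjusted p = 0.0107, n = 3). The log2 ratio thereby changed by -2.63, the sum of a rise of the cardiac and a fall of the skeletal calsarcin. *Palld* over *Mypn* went from 5.29 ± 0.0718 to 5.61 ± 0.646 and 3.44 ± 0.166, and *Pdlim3* over *Pdlim5* from 0.374 ± 0.0081 to 0.347 ± 0.0202 and 0.258 ± 0.0139.

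On the titin spring, *Ankrd23* over *Ankrd1* was 0.032, 0.0307 and 0.0323 in the E18.5d hearts, 0.0285, 0.0248 and 0.0483 in those of P1d and 0.255, 0.246 and 0.187 in those of P7d (exact permutation p = 0.0357, adjusted p = 0.0383). The P7d hearts lay above all others, and the E18.5d hearts lay within the range of P1d. *Fhl1* over *Fhl2* fell without overlap from 0.245 ± 0.0126 to 0.181 ± 0.0264 and 0.113 ± 0.0122.

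The ratio of the Xin genes, *Xirp1* over *Xirp2*, was 59.2, 53.1 and 38.4 in the E18.5d hearts, 44.7, 60.3 and 49.7 in those of P1d and 8.68, 9.11 and 7.39 in those of P7d (exact permutation p = 0.0321, adjusted p = 0.0383). *Lmod3* over *Lmod2* stood at 0.581, 0.566 and 0.417 at E18.5d, dropped to 0.0999, 0.0949 and 0.127 at P1d, and returned to 0.497, 0.411 and 0.332 at P7d (exact permutation p = 0.00714, adjusted p = 0.0153). The P1d hearts lay far below the others, which overlapped. *Trim63* over *Trim55* went from 0.58 ± 0.0442 and 0.589 ± 0.103 to 1.06 ± 0.0895 at P7d, where the 2 ring finger genes were about equal. *Mybpc2* over *Mybpc3* was at most 0.0128 in all hearts, and *Mybphl* over *Mybpc3* went from 0.0499 ± 0.00457 and 0.0549 ± 0.00588 to 0.0287 ± 0.0017.

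**Figure D4:**
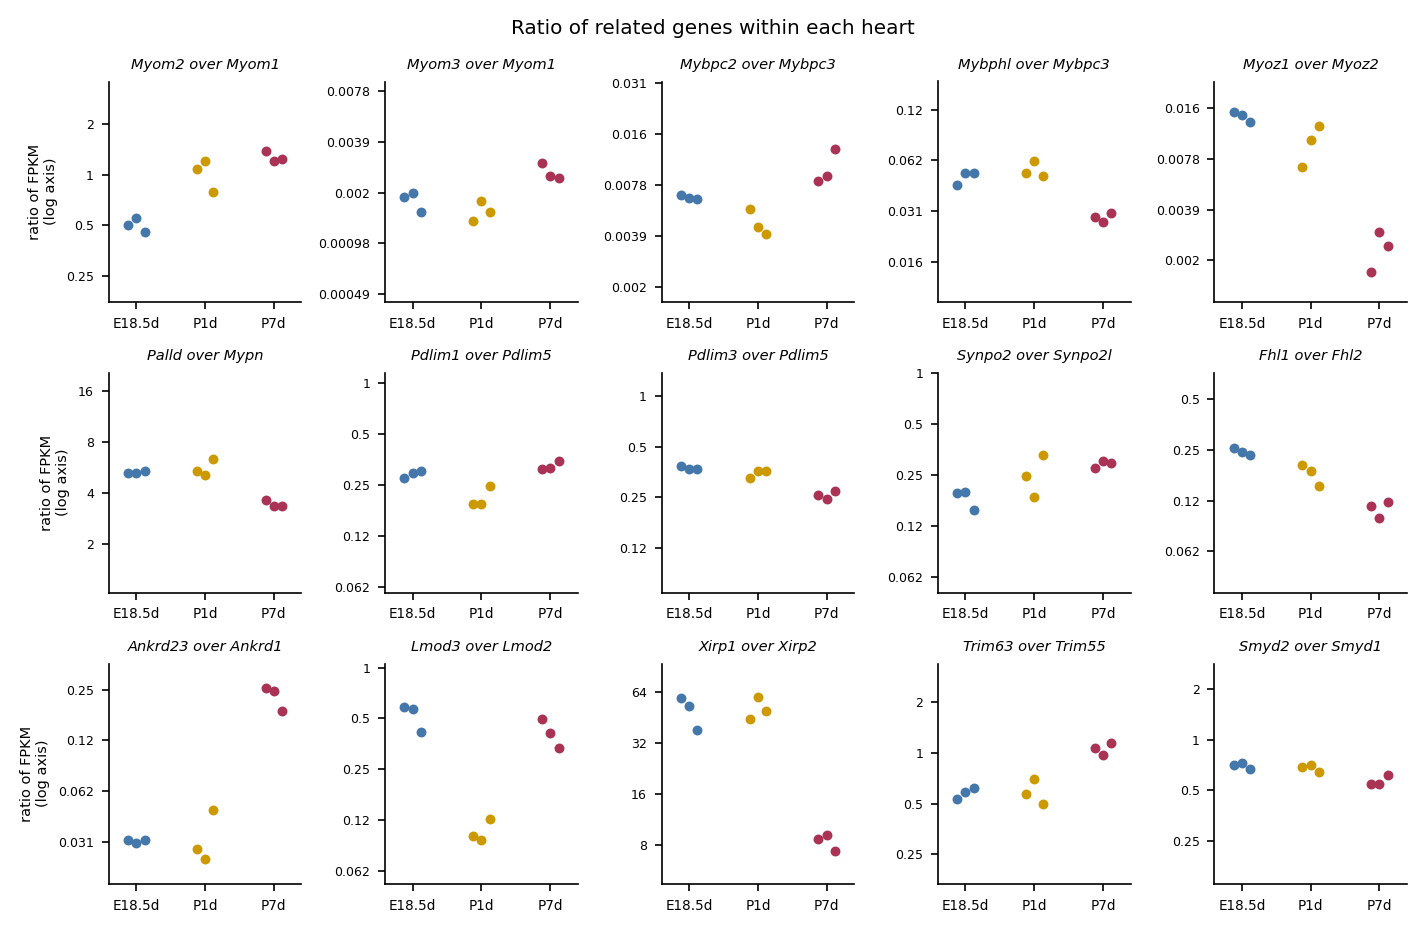
Ratio of FPKM of 15 pairs of related members in each heart, by stage, on logarithmic axes that all span the same fold range. Ankrd23 over Ankrd1 is higher and Xirp1 over Xirp2 and Myoz1 over Myoz2 are lower at P7d, and Lmod3 over Lmod2 is low at P1d.

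Some members are neighbours in the genome. *Myoz1* and *Synpo2l* lie on the minus strand of chromosome 14 with 2405 bases between them, and both fell between E18.5d and P7d. *Myoz2* and *Synpo2* lie 41503 bases apart on the minus strand of chromosome 3, where *Myoz2* rose and *Synpo2* (log2 change 0.22, SE 0.13, adjusted p = 0.174) did not pass. Both of these pairs hold a gene of each of the same families, a calsarcin beside a synaptopodin relative. *Obsl1* and *Des* lie 110730 bases apart on chromosome 1 on opposite strands, where *Obsl1* fell and *Des* rose.

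The results held to different degrees without the hearts that stood apart. With a term for *Xist* in the fit, 18 members rose and 9 fell between E18.5d and P7d (12% and 35.4% of all genes). Without the 4 hearts with *Xist*, 1 heart was left at E18.5d and 1 at P7d, the spread came from P1d alone, and 2 members passed in that comparison (0.683% of all genes rose and 0.742% fell), *Ankrd23* (log2 change 2.22, adjusted p = 0.023 by limma) and *Xirp2* (2.08, adjusted p = 0.0353). Other large changes did not pass there, at 1.74 for *Myom2*, 1.19 for *Tcap*, 0.75 for *Mybpc2* and -1.68 for *Myoz1*. Without the 3 hearts with airway genes, a choice made after seeing the data, 12 members rose and 5 fell between E18.5d and P7d (7.27% and 16.6% of all genes) and 6 rose and 1 fell between E18.5d and P1d (7.48% and 10.7%), with a single E18.5d heart left. *Ankrd23*, *Xirp2*, *Myom2*, *Tcap*, *Mybpc2* and *Myoz1* passed between E18.5d and P7d in that fit, with log2 changes of 2.15, 1.85, 1.88, 1.11, 1.02 and -1.28.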

How the data were processed

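RNA of 9 mouse hearts was sequenced, and the authors deposited 1 table of FPKM values per gene. Per the labels, STAR and the builds GRCm38 and mm10 are named in the submitters' processing notes, and the counting tool and annotation are not given in the sources used here. FPKM cannot be turned back into exact counts, so no count model was used. Hearts were grouped by the stage in their labels, and the labels name no batch.

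The 13618 of 48820 genes whose mean FPKM across all hearts reached 1 were tested on log2(FPKM + 1) with limma 3.58.1 in R 4.3.3, with all 3 stages in 1 fit, a mean-dependent prior variance, and Benjamini-Hochberg adjustment over all genes at 0.05. Ratios were tested by exact permutation with Python 3.11.15 and numpy 2.4.6. Gene positions were taken from GENCODE M21 (48144 identifiers matched) and promoters from RefSeq, where 1 promoter match is not reported here. Depth was estimated from the steps between low FPKM values, of which 81.8% to 88.8% per heart were whole fragments within 0.15 (30% by chance), and no floor or interval covers more than counting error.

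The members, gene lists and tests were chosen with earlier results of these data known. Values in every heart are given for *Ttn*, *Mybpc3*, *Actn2* and *Des* and for members with a called log2 change of at least 1 and hearts that did not overlap in any comparison. Other members are given by means, ranges and counts, and of other sarcomere genes the 3 largest called changes in each direction between E18.5d and P7d are named. The values of *Ankrd1* in every heart were added after they had been seen. Alternatives were a pseudocount of 0.1, other filters, other scalings, no variance trend, 2 stages alone, a replicate block, an Xist term, and hearts left out. Leaving out the hearts with airway genes was chosen after seeing the data. Deviations of hearts with the same replicate number correlated at -0.055 to 0.112, so the numbers were not taken to pair hearts.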

Additional observations from a re-analysis of the deposited data

How the results depend on the processing

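Of 72 calls of members, 42 kept their direction and side of the threshold under all 20 alternatives (19 for *Myoz1* and *Xirp2*, which a mean FPKM of 5 left out), 30 did not in at least 1, and 1 reversed. The fits without the hearts with *Xist* or airway genes are not among the 20. The cause of these changes was not tested, and where hearts were left out the fit also held fewer hearts. The comparisons are given here in the order E18.5d and P7d, E18.5d and P1d, and P1d and P7d. Leaving out the 4 hearts with *Xist* left 1 heart at E18.5d and 1 at P7d. The members' median log2 change was then 0.156, 0.119 and -0.053 (all genes, -0.171, -0.076 and -0.077). Without the 3 hearts with airway genes, which left a single E18.5d heart, it was 0.135, 0.185 and -0.064 (all genes, -0.151, -0.04 and -0.091). Members called with an absolute log2 change of at least 1 numbered 5, 3 and 5 (4, 3 and 4 higher, 1, 0 and 1 lower). Median of ratios left 6, 3 and 8 lower (20.9%, 22.9% and 19.8% of all genes). Quantile normalization left 6 lower in the first and 8 in the last (21.6% and 20.5%). An equal sum of protein-coding genes left 7 lower in the first (21.1%) and 16 higher and 7 lower in the last (24.2% and 16.4%). With an equal sum 7 were higher in the second comparison (8.63% of all genes), and 15 were called and 5 lower in the last (16.2% of all genes higher and 12.7% lower). Without a filter, and with the *Xist* term, 3 were lower in the second (6.28% and 21.2% of all genes). Leaving out 1 heart gave 24 to 31, 17 to 21 and 20 to 24 called (15 to 20, 13 to 16 and 9 to 11 higher, 8 to 11, 4 to 6 and 11 to 14 lower), and 13 to 15 ratios past the threshold. Of all genes, 10.35% to 13.53%, 14.6% to 19.43% and 12.09% to 15.3% were then higher, and 29.8% to 39.1%, 22.51% to 26.99% and 22.48% to 28.06% lower. With the replicate number as a block, 19 members were higher and 11 lower between E18.5d and P7d (12.5% and 36.4% of all genes). Between E18.5d and P1d they were 14 and 7 (18.3% and 27.1%), and between P1d and P7d 10 and 13 (15% and 28%). In that setting 0 ratios passed, since its 216 arrangements allow no p below 0.0278. Of the other sarcomere genes, 3 were lower between E18.5d and P7d by median of ratios.

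These log2 changes turned sign. *Unc45b* between E18.5d and P7d was 0.002 by median of ratios. Between E18.5d and P1d, *Ttn* was -0.121 with an equal sum, -0.096 without the hearts with airway genes and -0.018 to 0.134 without 1 heart (lowest without P1d replicate 1). *Mybpc3* was -0.019 with an equal sum, and *Xirp2* was -0.082 without the hearts with airway genes. Between P1d and P7d, *Tcap* was 0.062 with an equal sum, 0.085 with an equal sum of protein-coding genes, 0.042 by median of ratios and -0.203 to 0.026 without 1 heart (positive without P1d replicate 2). *Des* was -0.013 to 0.056 without 1 heart (negative without P1d replicate 3). Depth limits *Ankrd2*, which had 0 to 4 fragments per heart.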

Other observations

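A further 36 sarcomere genes of the same compartments were listed, of which 30 were tested. Between E18.5d and P7d 12 rose and 10 fell (12.5% and 36.9% of all genes), between E18.5d and P1d 6 rose and 6 fell (18.4% and 27.6%), and between P1d and P7d 13 rose and 7 fell (15.5% and 28.6%), with median log2 changes of 0.10, -0.03 and 0.16. By the median of ratios 15 rose and 3 fell (21.3% and 20.9% of all genes), 8 rose and 5 fell (23.2% and 22.9%), and 16 rose and 5 fell (21.9% and 19.8%). The largest rises between E18.5d and P7d were those of *Trim54*, *Tmod4* and *Hspb6*. *Trim54*, the third muscle ring finger gene, stood at 4.40, 4.37 and 3.77 FPKM in the E18.5d hearts and 11.8, 10.7 and 11.5 in those of P7d. *Tmod4*, the skeletal muscle tropomodulin, went from 0.42 to 0.69 up to 2.07 to 2.24 FPKM, and *Hspb6*, a small heat shock protein, from 45.0 to 49.2 up to 78.3 to 85.8 FPKM. The largest falls were those of another small heat shock gene, *Hspb1*, from 320.8 to 322.4 down to 153.0 to 168.9 FPKM, and of the cysteine and glycine-rich LIM genes *Csrp2*, from 173.9 to 192.3 down to 101.2 to 105.8, and *Csrp1*, from 124.9 to 151.9 down to 85.3 to 93.0 FPKM. The hearts of E18.5d and P7d did not overlap for any of these 6 genes, which were picked by their change in this same comparison. They did not overlap for 62.5% of all genes.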
